A study of Mus musculus with 20 samples.

Results

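Mitochondria keep a ribosome of their own, which translates the few proteins encoded in mitochondrial DNA. Its proteins are all encoded in the nucleus: Mrps genes are named for the small subunit and Mrpl genes for the large subunit. Like most other mitochondrial proteins they enter through the translocase of the outer membrane (Tomm genes) and then through the translocases of the inner membrane or the small chaperones between the membranes (Timm genes). The members described here are the array probes whose gene symbol starts with Mrpl, Mrps, Timm or Tomm followed by a digit. Of the 44290 features on the array 174 matched, 1 of them annotated to 2 genes and left unnamed, which left 173 probes of 103 genes. The large subunit had 83 probes of 49 genes, the small subunit 49 probes of 29 genes, the Timm genes 26 probes of 15 genes and the Tomm genes 15 probes of 10 genes. All 173 had a value on each of the 20 arrays, so no filter removed a member. Symbols are not always a guide to place: for example, Mrps30 is now assigned to the large subunit, and Tomm34 is a cytosolic co-chaperone. The counts by role follow the symbol throughout.

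Spinal cord RNA of 23 female C57BL/6 mice, 11 wild type (WT) and 12 GFAP-IkappaBalpha-dn transgenic (TG), was compared on 20 arrays, each pairing an animal labelled with Cy5 and another labelled with Cy3. The transgene expresses a dominant negative form of the NF-kappaB inhibitor IkappaBalpha under the Gfap promoter, which is active in astrocytes, and the WT mice were littermates bred from heterozygous transgenic fathers. Both genotypes were studied naive and with experimental autoimmune encephalomyelitis (EAE). This is an inflammatory disease of the central nervous system raised by immunisation with the myelin peptide MOG(35-55) in complete Freund's adjuvant plus pertussis toxin. EAE mice were killed 10, 17 or 80 days post-induction (dpi). Each of the 8 groups has 3 named animals except WT at 17 dpi, for which 2 are named although the design text gives 3. The labels give an age of 60 days and the design text 2 to 4 months. Genotypes were paired on 14 arrays (3 naive, 4 of 10 dpi, 3 of 17 dpi, 4 of 80 dpi) and times within a genotype on 6, so that each change with time has 1 direct array per genotype. No array joined 10 dpi to another time. Some animals are on more than 1 array, so the arrays of a comparison are not all independent pairs. Bulk cord RNA cannot tell fewer cells of a type from less RNA per cell, and the ratios carry no level, so the cord's own marker genes could not be checked for presence.

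All values are log2 ratios, on which 1 means 2-fold, and ± gives the standard error of the fit. The numerator of each ratio is not stated in the sources used. The values were read as TG over WT and as EAE over naive, a reading chosen with the values in view, and the counts obtained when every array is instead read in title order (Cy5 over Cy3) stand beside those of each comparison. A probe was called when its Benjamini-Hochberg adjusted p from the moderated fit in limma, adjusted over 43785 tested probes, was under 0.05. At 17 dpi the array that set TG animal 3 against WT animal 4, called the wide array here, had an SD over probes of 1.07, against 0.286 to 0.730 on the other 19, so results at 17 dpi are given with and without it.

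Nuclear genes for mitochondrial proteins often hold sites for NRF1, GABP and YY1 near their start. RefSeq promoter windows of 300 bases (GRCm38.p6) were matched for 91 of the 103 genes and searched on both strands for the strings GCGCA, any 1 base and GCGC in a row (NRF1), CCGGAAG (GABP) and ATGGCGGC (YY1). At least 1 of the strings was found in 53 of the 91 genes (58.2%), against 3653 of 17492 protein-coding genes (20.9%). The GABP string was in 38.5% of member genes and 12.9% of all coding genes, the NRF1 string in 16.5% and 7.17%, and the YY1 string in 15.4% and 3.5%. The share with any string was 57.7% for the small subunit, 60.5% for the large subunit, 57.1% for Timm genes, and 4 of the 8 Tomm genes held one. Of the 25 genes with a promoter window and a probe that rose at 17 dpi in both genotypes, 15 held a string (60.0%), close to the share over all members. A match is a description of the letters, not a bound site. The 3 windows printed here are of genes from that set, with the matched strings in capitals. There is 1 each of the small subunit, the Timm chaperones and the large subunit. Only windows with a match are printed, and that of Timm8a1, also of that set, held no string. That of Mrps18c (chr5:100798509-100798808, plus strand) holds the GABP string on the opposite strand, that of Timm8b (chr9:50603651-50603950, plus strand) holds GABP and NRF1 strings, and that of Mrpl32 (chr13:14612988-14613287, minus strand) holds the NRF1 string, which reads the same on both strands there.
Mrps18c: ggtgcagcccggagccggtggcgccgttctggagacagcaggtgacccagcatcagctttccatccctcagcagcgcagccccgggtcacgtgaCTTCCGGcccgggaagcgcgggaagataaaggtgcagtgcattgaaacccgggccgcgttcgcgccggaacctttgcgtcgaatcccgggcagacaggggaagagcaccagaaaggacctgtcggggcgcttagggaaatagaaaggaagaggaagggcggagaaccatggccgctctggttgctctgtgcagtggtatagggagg
Timm8b: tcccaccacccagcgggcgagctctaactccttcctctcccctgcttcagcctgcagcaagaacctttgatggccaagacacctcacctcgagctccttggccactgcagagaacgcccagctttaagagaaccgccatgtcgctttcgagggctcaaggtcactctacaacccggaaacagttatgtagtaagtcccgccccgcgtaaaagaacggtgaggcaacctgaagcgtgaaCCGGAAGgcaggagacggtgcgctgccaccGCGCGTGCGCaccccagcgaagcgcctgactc
Mrpl32: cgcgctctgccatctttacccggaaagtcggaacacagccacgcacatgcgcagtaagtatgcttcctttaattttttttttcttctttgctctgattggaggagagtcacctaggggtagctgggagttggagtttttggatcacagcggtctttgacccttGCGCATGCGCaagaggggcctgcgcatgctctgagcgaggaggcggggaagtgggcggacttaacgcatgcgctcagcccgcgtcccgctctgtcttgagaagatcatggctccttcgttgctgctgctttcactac

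The first question was whether the members differed with EAE at 17 dpi in WT cord. Of 173 member probes 50 were called (28.9%), 37 higher and 13 lower than in naive cord. Of all probes 16.1% were called, 8.38% higher and 7.76% lower. The member median was 0.11, against -0.03 over all probes. Every role held calls: 22 higher and 7 lower of 83 large subunit probes (median 0.14), 9 higher and 2 lower of 49 small subunit probes (median 0.02), 4 higher and 2 lower of 26 Timm probes (median 0.04) and 2 higher and 2 lower of 15 Tomm probes (median 0.20). In title order no member was called, with 0.0137% of all probes called. Without the wide array the count was 95 (54.9%, against 39.7% of all probes), and without WT animal 4 at 17 dpi it was 99 (57.2%, against 42.3%). Without WT naive animal 2, which removes the only direct array, it was 17 (9.83%, against 2.8% of all probes).

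**Figure D1:**
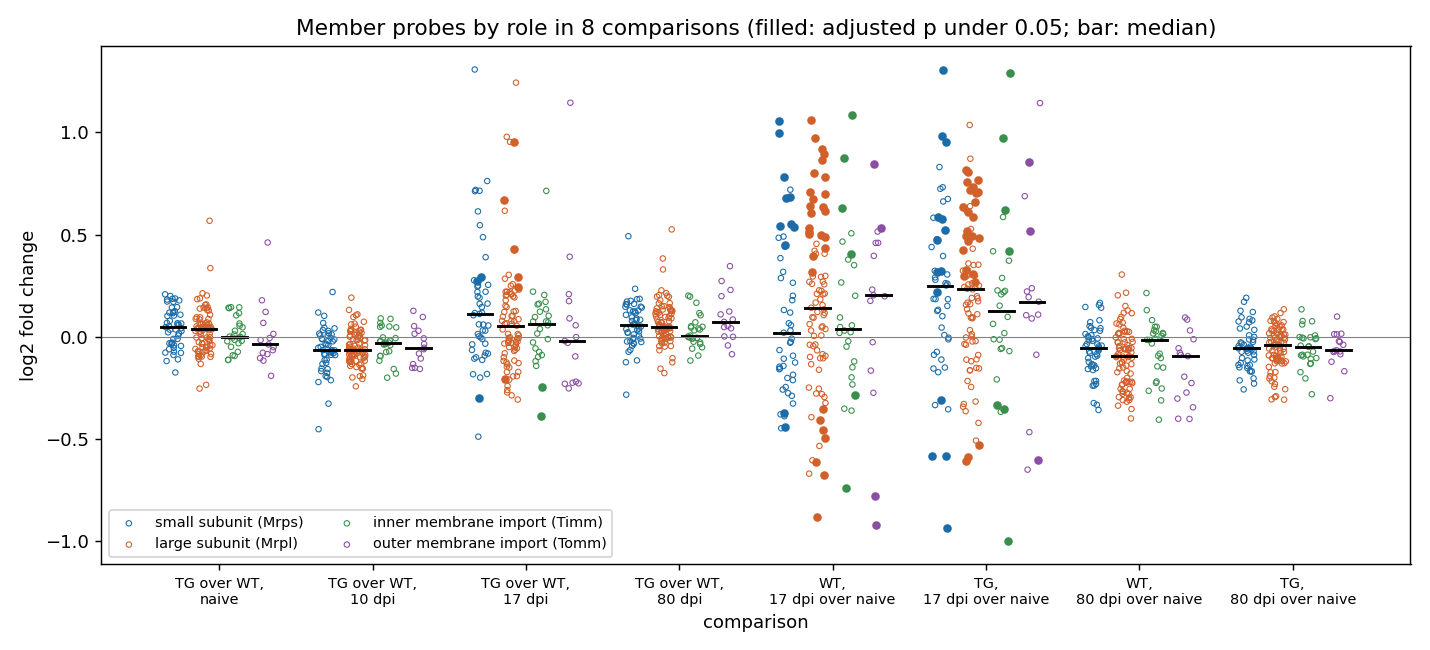
Log2 fold change of each of the 173 member probes in the 8 comparisons, coloured by role, with filled points for probes with an adjusted p under 0.05 and a black bar at the median of each role. Filled points are found at 17 dpi only, 50 in WT, 49 in TG and 11 in TG over WT.

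The same comparison in TG cord gave 49 called members (28.3%), 38 higher and 11 lower. Of all probes 16.7% were called, 6.86% higher and 9.83% lower. The member median was 0.21, against 0.02 over all probes. The large subunit had 22 probes higher and 3 lower (median 0.24), the small subunit 10 higher and 4 lower (median 0.25), the Timm genes 4 higher and 3 lower (median 0.12) and the Tomm genes 2 higher and 1 lower (median 0.17). In title order none was called, with 0.103% of all probes called. The TG count rests on few animals: it was 1 without TG naive animal 5 (0.375% of all probes), 8 without TG animal 1 at 17 dpi (3.05%), 24 without TG naive animal 8 (9.52%) and 91 without TG animal 3 at 17 dpi (32.1%). The first and second of these animals are those of the direct TG array.

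Small subunit genes that rose included Mrps18c, 1 of 3 related proteins that share the Mrps18 name. Its probe 18212 read 1.55 on the WT direct array (WT animal 1 at 17 dpi over WT naive animal 2) and 0.76 on the TG direct array (TG animal 1 at 17 dpi over TG naive animal 5). Direct ratios here and below are raw, with the EAE animal in Cy3 on the WT array and in Cy5 on the TG array. This probe's fitted dye effect was -0.30, which raises the first ratio and lowers the second. The fitted changes allow for the dye. WT animal 1 was 0.51 above the WT animal at 80 dpi, and the TG animal at 80 dpi was 0.95 below TG animal 1 (a ratio of -0.95). Thus the animal at 17 dpi was the higher one on all 4 arrays that set it against a naive or 80 dpi animal of its genotype. The fitted change was 1.05 ± 0.15 in WT (adjusted p = 0.000286, limma) and 0.98 ± 0.15 in TG (adjusted p = 0.0011). The second Mrps18c probe, 39384, also rose in both, by 1.00 in WT and 1.31 ± 0.23 in TG (adjusted p = 0.00225). Mrps33 rose in TG on 2 of its 3 probes, by 0.95 ± 0.25 (adjusted p = 0.0189) and 0.58, and in WT on 1 (0.55), where the others gave 0.44 and 0.72. Mrps9, a protein at the head of the small subunit, was lower in TG on 1 of its 3 probes (-0.94 ± 0.21, adjusted p = 0.00845), with a direct TG ratio of -1.35. The other 2 Mrps9 probes were not called in TG (0.13 and 0.29).

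Among large subunit genes Mrpl41 rose in WT. Its probe 38070 read 1.10 on the WT direct array, 0.48 on the TG direct array, 1.10 for WT at 17 over 80 dpi and -1.35 for TG at 80 over 17 dpi. The probe's fitted dye effect of -0.29 raises the first of these and lowers the others. The fitted change was 1.06 ± 0.18 in WT (adjusted p = 0.00122) and 0.72 in TG (adjusted p = 0.0159). A further Mrpl41 probe was not called and lay on the other side of 0 (-0.28 in WT and -0.36 in TG). Mrpl35 rose by 0.97 ± 0.22 in WT (adjusted p = 0.00791) and 0.82 in TG on probe 16659, with direct ratios of 1.18 and 0.69. Its probe 3353 instead fell by 0.35 in WT, and the sign of that probe's ratio followed the dye on all 20 arrays. Mrpl20, which binds early in assembly of the large subunit in bacteria, rose by 0.92 ± 0.20 in WT and 0.77 in TG, with direct ratios of 0.79 and 0.82. Mrpl13, Mrpl23, Mrpl33 and Mrpl32 each rose in both genotypes, by 0.78 to 0.89 in WT and 0.59 to 0.81 in TG. A further Mrpl33 probe was not called in either genotype.

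Lower large subunit probes were led by Mrpl38, with direct ratios of -1.15 in WT and -0.46 in TG. It fell by 0.88 (SE 0.16, adjusted p = 0.00206) in WT and by 0.61 (SE 0.16, adjusted p = 0.0212) in TG on probe 20345. Its other 2 probes were not called (0.16 and -0.05 in WT). Mrpl4, whose bacterial counterpart lines the exit tunnel, was below 0 by similar amounts on both direct arrays (-0.69 and -0.73). It fell by 0.61 in WT and 0.59 in TG (-0.59 ± 0.08, adjusted p = 0.000548). Mrpl3 fell by 0.68 (SE 0.13, adjusted p = 0.00215) in WT on probe 27633, while its probe 8409 rose by 0.39 (adjusted p = 0.0328), so that no direction can be given for the gene.

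Of the import genes, the small chaperones between the membranes moved in both directions. Timm8b and Timm8a1, related chaperones that escort membrane proteins, rose in both genotypes. Timm8b probe 652 read 1.02 on the WT and 1.15 on the TG direct array, 0.95 for WT at 17 over 80 dpi and -2.24 for TG at 80 over 17 dpi. The fitted change was 1.08 ± 0.28 in WT (adjusted p = 0.0159) and 1.29 ± 0.28 in TG (adjusted p = 0.0075). The other Timm8b probe was not called (0.35 in WT and 0.59 in TG). Timm8a1 rose by 0.87 in WT and 0.97 ± 0.15 in TG (adjusted p = 0.00113), with direct ratios of 0.78 and 0.93. Timm9, a chaperone that pairs with Timm10, went the other way on probe 28961, with direct ratios of -0.58 and -1.38. That probe fell by 0.74 (SE 0.19) in WT and by 1.00 (SE 0.19, adjusted p = 0.0041) in TG, and the other 2 Timm9 probes were not called in either genotype. Timm17b, a subunit of the main inner membrane channel, fell in both on probe 39400 only (-0.29 in WT and -0.35 in TG). A further Timm17b probe was called lower in TG alone, and its remaining probes were not called in either genotype. A probe of its relative Timm17a rose in TG (0.62, adjusted p = 0.00541), while the other Timm17a probe was not called.

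In the outer membrane, the small subunit Tomm7 rose by 0.85 in WT (adjusted p = 0.0279) and by 0.85 ± 0.24 in TG (adjusted p = 0.028), with direct ratios of 0.61 and 0.84. Tomm22, a receptor at the core of the complex, rose by 0.53 and 0.52. Tomm40, the channel itself, fell by 0.92 (SE 0.22, adjusted p = 0.0101) in WT, with a direct ratio of -1.18. Its TG value of -0.65 was not called (adjusted p = 0.0569). Tomm34 fell in both on probe 15969, by 0.78 (SE 0.15) in WT and by 0.60 (SE 0.15) in TG, with direct ratios of -0.76 and -0.87. The other Tomm34 probe was not called in either genotype. The preprotein receptors Tomm20 and Tomm70a were not called on any of their 6 probes in either genotype.

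Side by side, 29 member probes were called higher and 8 lower in both genotypes, which is 37 of the 50 called in WT and of the 49 called in TG. Called higher in both were 16.8% of members and 1.94% of all probes, and called lower in both 4.62% and 4.85%. No member was called in opposite directions. These fitted values share arrays, since the WT and TG groups are linked in 1 model, and so are not independent. The 2 direct arrays share no animal and carry the EAE animal in opposite dyes. On them 77 of 173 member probes were above 0 on both (44.5%), 44 below 0 on both (25.4%) and 52 split, while over all probes 26.8% were above 0 and 28.4% below 0 on both.

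**Figure D2:**
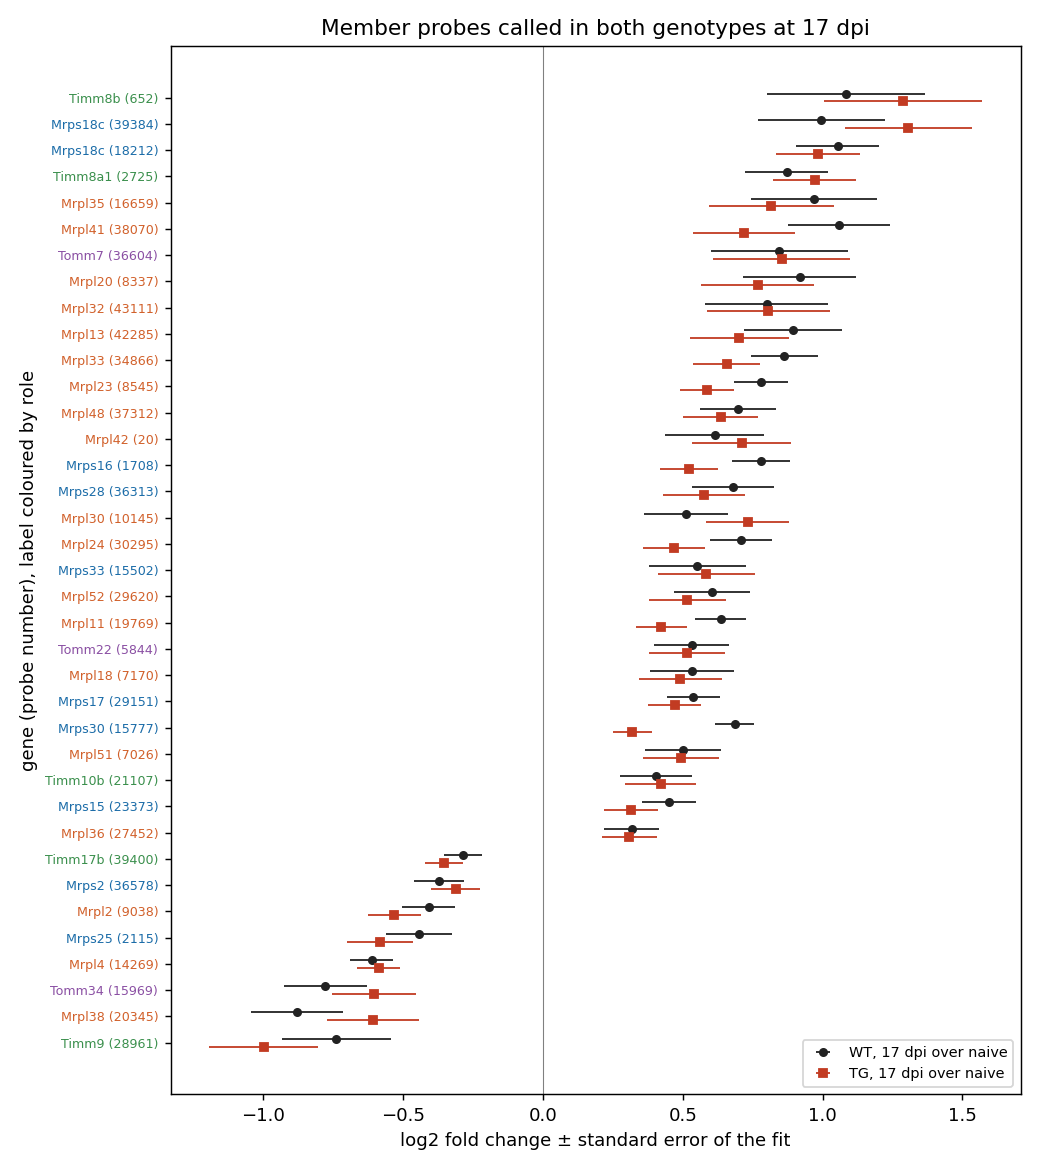
Fitted log2 fold change at 17 dpi over naive, with its standard error, for the 37 member probes called in both WT (black circles) and TG (red squares), labelled by gene and probe number. The 29 higher probes run from Mrpl36 near 0.3 up to Timm8b, and the 8 lower ones from Timm17b down to Timm9.

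**Figure D3:**
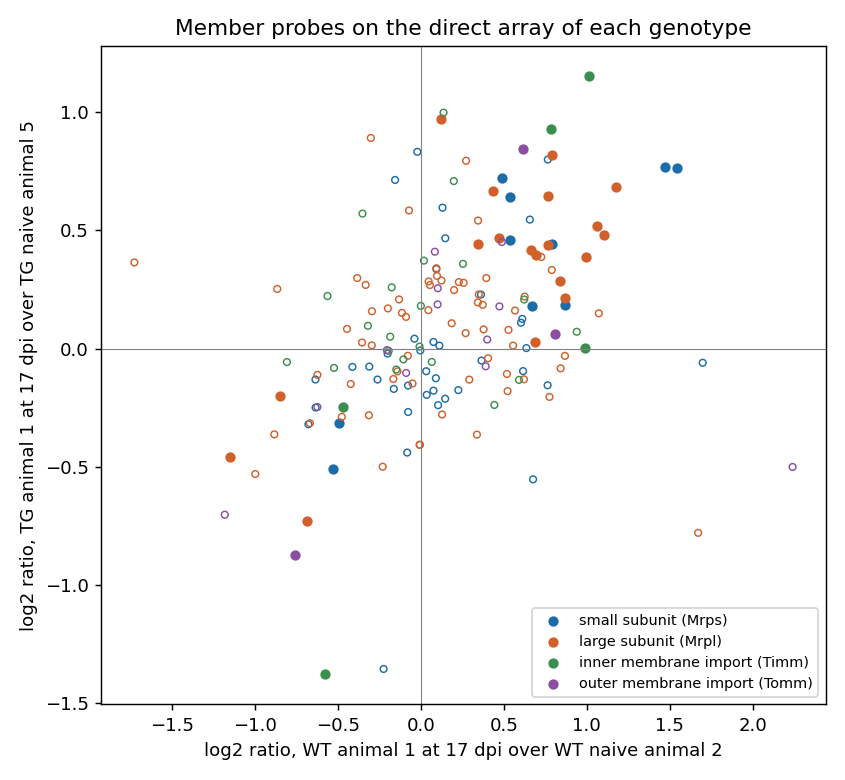
Log2 ratio of each member probe on the array of WT animal 1 at 17 dpi over WT naive animal 2 (horizontal) and on that of TG animal 1 at 17 dpi over TG naive animal 5 (vertical), coloured by role, with filled points for probes called in both genotypes. Both ratios were above 0 for 77 of the 173 probes and below 0 for 44.

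Different probes of a gene often did not share a call. Of the 48 member genes with over 1 probe, 25 had a called probe in WT and 2 had all of their probes called, and in TG the numbers were 26 and 2. Probes of 1 gene were called in opposite directions for Mrpl3, Mrpl35 and Mrpl44 in WT and for Mrps15 in TG. The agreement of probes was not counted over all genes of the array, so these numbers describe the members only. Averaged over the probes of each gene, 28 of 103 genes were called in WT (21 higher and 7 lower, 27.2% against 15.3% of all features) and 34 in TG (28 higher and 6 lower, 33.0% against 16.1%). The 146 member probes designed to RefSeq mRNA accessions had 35 higher and 10 lower calls in WT and 37 and 8 in TG. The 27 probes designed to other accessions had 2 and 3 in WT and 1 and 3 in TG. The shares over all probes of each class were not counted, so this split describes the members only. Gene length had a Spearman correlation with the change over the 173 probes of -0.03 in WT and 0.03 in TG, a description across probes.

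Related gene groups were counted in the same 2 comparisons. Cytosolic ribosomal proteins had 95 of 150 probes higher and 3 lower in WT (median 0.85) and 60 higher and 4 lower in TG (median 0.52). Nuclear-encoded respiratory chain subunits, most of which assemble with the products of mitochondrial translation, had 15 higher and 9 lower of 113 probes in WT (median 0.20) and 21 higher and 2 lower in TG (median 0.33). A list of mitochondrial translation factors and ribosome assembly proteins was called in both directions. It also holds some ribosomal proteins such as Dap3 and transcription proteins such as Tfam. It had 8 higher and 10 lower of 61 probes in WT (median -0.05) and 7 higher and 9 lower in TG (median -0.01). Of 34 probes for the import motor, processing peptidases and sorting machinery, 3 rose in WT, and 4 rose and 1 fell in TG.

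**Figure D4:**
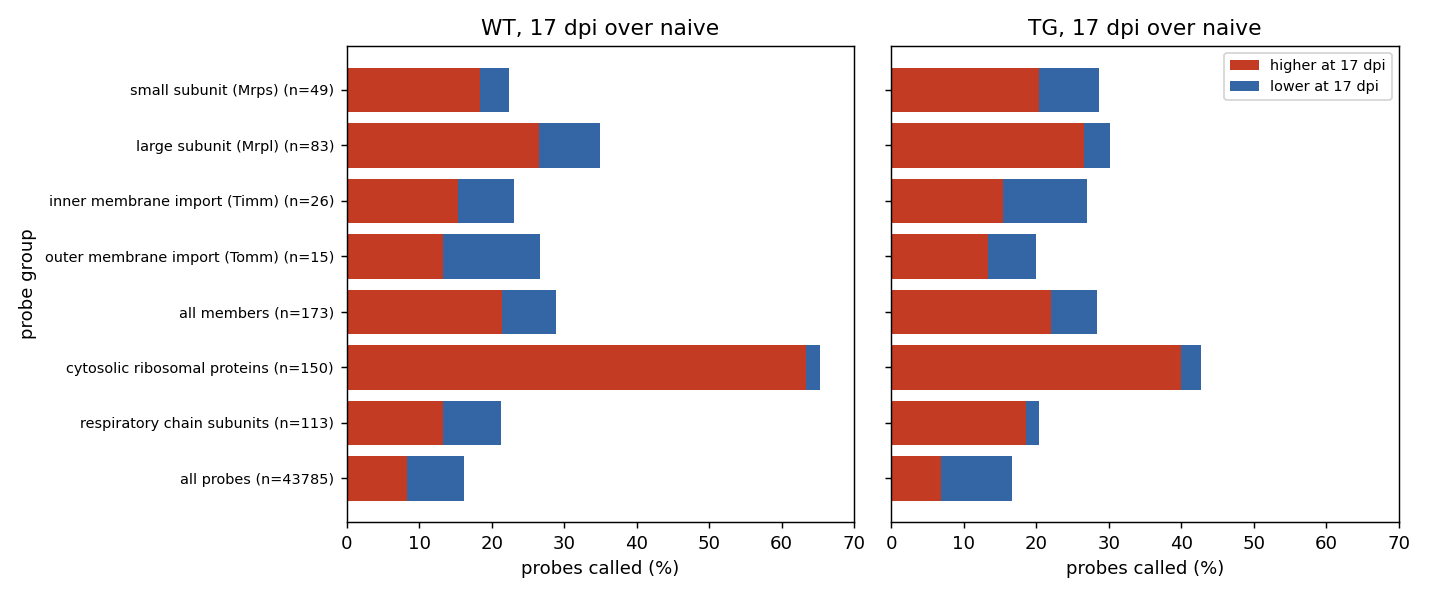
Percent of probes called higher (red) and lower (blue) at 17 dpi over naive, for each role, all members, 2 other gene groups and all tested probes, in WT (left) and TG (right). The members' 28.9% and 28.3% lie between all probes, 16.1% and 16.7%, and the cytosolic ribosomal proteins.

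Markers of several cell types moved at the same time. Macrophage and microglia markers were higher on 20 and lower on 1 of 23 probes in WT (median 2.21) and higher on 5 in TG (median 0.59), with array medians of 1.91 on the WT and 0.67 on the TG direct array. T cell markers were higher on 3 of 10 probes in WT and 1 in TG. Neuron markers were lower on 7 of 21 probes in WT (median -0.64) and 4 in TG (median -0.31), and oligodendrocyte and myelin markers on 10 of 18 in WT (median -0.63) and 1 in TG (median -0.19). Astrocyte markers had 4 probes higher and 1 lower of 18 in WT and 1 of each in TG. Red blood cell genes were lower on 3 of 7 probes in WT and on none in TG, and none of 11 skeletal muscle probes was called in either. The part of these cells in the members' values was not tested.

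Between genotypes at 17 dpi, 11 member probes were called (6.36%), 7 higher and 4 lower in TG, a smaller share than the 13.0% of all probes (4.56% higher and 8.45% lower). The member median was 0.06, against 0.04 over all probes, and 46 members had an unadjusted p under 0.05 (26.6%, against 29.3% of all probes). The large subunit had 5 probes higher and 1 lower, the small subunit 2 higher and 1 lower, the Timm genes 2 lower and the Tomm genes none. In title order none was called, as was the case when the 3 TG and WT arrays of 17 dpi were fitted alone. Without the wide array, 50 were called, 43 higher and 7 lower (28.9%, against 24.2% of all probes). Leaving out TG animal 7 gave 31 calls (17.9%, against 23.5% of all probes), WT animal 1 gave 55 (31.8%, against 37.9%) and WT animal 4 gave 49 (28.3%, against 23.3%). Of 23 macrophage and microglia probes 18 were lower in TG (median -1.56), T cell markers were higher on 1 and lower on 5 of 10, red blood cell genes were higher on 6 of 7 (median 1.56), neuron markers were higher on 5 of 21, oligodendrocyte markers were higher on 3 and lower on 1 of 18, and cytosolic ribosomal proteins were higher on 1 and lower on 39 of 150 (median -0.26). Their part was not tested.

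Mrps30 had the smallest adjusted p of the members in this contrast. Its ratios of TG over WT at 17 dpi were -0.37, -0.22 and -0.25, all below 0, and in naive mice -0.07, -0.01 and 0.11. The fitted difference was -0.30 ± 0.05 (adjusted p = 0.00185, limma), lower in TG. With EAE it rose in both genotypes, by 0.69 in WT (adjusted p = 3.59e-05) and 0.32 in TG (adjusted p = 0.00701), with direct ratios of 0.87 and 0.19. The test of the difference between 17 dpi and naive gave -0.37 ± 0.07 (adjusted p = 0.00605). Without the wide array the difference was -0.41.

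The 3 probes furthest above 0 among those called had their highest ratio on the wide array. Mrpl47 read 0.20, 2.59 and 0.17 on the 3 arrays, the middle value being that array. It rose by 0.95 ± 0.28 (adjusted p = 0.039), and by 0.39 without that array (adjusted p = 0.0219). Mrpl9 read 0.15, 1.49 and 0.34 and rose by 0.67 ± 0.18 (0.35 without it), and Mrpl50 read 0.24, 1.08 and 0.24 and rose by 0.43 ± 0.11 (0.22 without it). All 9 of those ratios were above 0. Other probes of these genes were not called: 0.08 and 0.62 for Mrpl47 and -0.13 for Mrpl50. The same array ran far below 0 for several probes that were above 0 on both direct arrays, with -1.64 for Mrpl35, -1.29 for Mrpl41 and -0.92 for Timm8b.

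Mrpl57 and Mrps11 were higher in TG by 0.29 ± 0.07 and 0.29 ± 0.09 (adjusted p = 0.01 and 0.0482) while their raw ratios followed the dye. On all 11 arrays with the numerator in Cy5 the Mrpl57 probe lay below 0 (-0.76 to -0.13), and on all 9 with it in Cy3 it lay above 0 (0.21 to 0.79). Mrps11 did the same (-0.81 to -0.01 and 0.10 to 0.73). Their fitted dye effects were -0.50 and -0.52, larger than the fitted difference between genotypes. In all, 5 of 173 member probes (2.89%) had their sign set by the dye on every array, the others being probes of Mrpl35, Mrpl49 and Mrps18b, against 2.72% of 43207 probes with a value on every array. The second Mrpl57 probe was not called (-0.01).

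Among the lower calls Timm10b, a small chaperone of the carrier translocase, had ratios of -0.39, 0.28 and -0.59 and a fitted difference of -0.39 ± 0.10 (adjusted p = 0.0155) on probe 1741. Its other probe read -0.44, 0.25 and 0.32 and was not called (0.07). Timm23, the main inner membrane channel, was lower by a fitted -0.24 ± 0.08 (adjusted p = 0.0463) on 1 of its 2 probes, the other giving -0.14, and was not called without the wide array (-0.17, adjusted p = 0.0665). Mrpl44 was lower on 1 of its 3 probes (-0.21 ± 0.06, adjusted p = 0.0318), with ratios of -0.11, -0.35 and -0.10. The remaining calls were Mrpl46 and Mrps17, higher by 0.24 and 0.27. A second Mrps17 probe was not called (-0.11).

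The difference between genotypes was tested for a change from naive mice. At 17 dpi 3 member probes were called (1 higher and 2 lower, 1.73%), against 6.7% of all probes (1.96% higher and 4.73% lower): Mrpl57 (0.38 ± 0.09, adjusted p = 0.0175), Timm10b probe 1741 (-0.53 ± 0.13, adjusted p = 0.0206) and Mrps30. In title order none was called. Leaving out TG animal 3 at 17 dpi gave 54 calls (31.2%, against 28.2% of all probes) and TG animal 7 gave 19 (11%, against 16.0%). WT animal 1 left out gave 24 (13.9%, against 19.3%) and WT animal 4 gave 60 (34.7%, against 30.7%). Without naive TG animal 5 or WT animal 2 there was 1 call (1.69% and 1.77% of all probes), and without TG animal 8 none (3.09%). At 10 dpi and 80 dpi limma called no member for this difference, with 0% and 0.354% of all probes called. An unadjusted p under 0.05 was found for 11 and 5 members (6.36% and 2.89%, against 4.59% and 5.53% of all probes). Title order called 2 at 10 dpi (1.16%, against 2.43%) and 0 at 80 dpi, and array weights called 0 and 36 (20.8% at 80 dpi, against 17.8% of all probes).

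In naive cord limma called no member between TG and WT, with 0% of all probes called, 4 members at an unadjusted p under 0.05 (2.31%, against 1.05% of all probes) and 21 called in title order (7 higher and 14 lower, 10.2% of all probes). The members furthest from 0 by the moderated statistic were Mrpl15 (0.34 ± 0.11) and Mrpl28 (0.20 ± 0.07) above 0. Below 0 they were Timm22, the core of the carrier translocase (-0.09 ± 0.07), and Tomm20 (-0.19 ± 0.14). These are values of single probes, and each of these genes has another probe, which was not called. The 3 Mrpl15 ratios were 0.00, 0.67 and 0.15, so 1 array carried most of that value.

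At 10 dpi limma again called none, against 0.0274% of all probes, with 7 members at an unadjusted p under 0.05 (4.05%, against 6.53% of all probes) and 8 called in title order (3 higher and 5 lower, 8.59% of all probes). Mrps6 probe 34424 was below 0 on all 4 arrays (-0.26, -0.85, -0.25 and -0.44), with a fitted -0.45 ± 0.11 (adjusted p = 0.265). Mrps17 gave -0.21 ± 0.07, and above 0 lay Mrps2 (0.22 ± 0.14) and Mrps18b (0.12 ± 0.05). Skeletal muscle genes had array medians of 3.47 and 3.14 on the 2 arrays of TG animal 1-5 and of -0.58 and -0.20 on the other 2, and their part in the members' values was not tested.

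At 80 dpi no member was called by limma in any of the 3 comparisons, but with array weights 48 were called between TG and WT (27.7%, against 19.8% of all probes), 22 over naive in WT (12.7%, against 10.9%) and 30 in TG (17.3%, against 13.3%). Between TG and WT the background was 1.66% of all probes, 7 members had an unadjusted p under 0.05 (4.05%, against 7.8% of all probes), and title order called 41 (8 higher and 33 lower, 25.1% of all probes). Mrpl46 read 0.37, 0.28, 0.19 and 0.23, above 0 on all 4 arrays, with a fitted 0.20 ± 0.06 (adjusted p = 0.128). Mrps6 probe 34424 was below 0 on all 4 (-0.19, -0.47, -0.19 and -0.43), as it was at 10 dpi. Its fitted value was -0.28 ± 0.10 (adjusted p = 0.334, limma). The other Mrps6 probe gave -0.12 ± 0.34. Mrpl3 gave 0.23 ± 0.09 and Mrpl23 -0.12 ± 0.07. Without the wide array, 7 members were called (4.05%, against 6.01% of all probes). The macrophage and microglia array medians lay between -1.45 and -1.04 on the 4 arrays, and those of skeletal muscle genes were 2.24 and 1.74 on the arrays of TG animals 21 and 27 and 0.14 and -0.21 on those of TG animal 26. Their part was not tested.

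Against naive mice of the same genotype, the members at 80 dpi had medians of -0.08 in WT and -0.05 in TG, with backgrounds of 1.09% and 0.0206% of all probes called. Unadjusted p was under 0.05 for 13 and 8 members (7.51% and 4.62%, against 7.8% and 1.45% of all probes), and title order called none in either. Mrpl46 gave -0.35 ± 0.09 (adjusted p = 0.066) and Mrpl4 -0.30 ± 0.08 (adjusted p = 0.0841) in WT, with direct ratios of -0.20 and -0.10, and Mrps30 and Mrpl15 lay above 0 (0.15 ± 0.07 and 0.30 ± 0.14). In TG Mrpl4 gave -0.29 ± 0.08 and Mrpl38 -0.31 ± 0.10, and above 0 lay Mrpl36 (0.13 ± 0.10) and Mrps18b (0.10 ± 0.07). Timm8b, Mrps18c probe 18212 and Mrpl41 read 0.11, 0.22 and 0.10 on the direct WT array of 80 dpi over naive and -0.52, -0.17 and -0.40 on the TG one. On the direct arrays of 17 dpi they read 0.48 to 1.55. The 80 dpi animal was in Cy3 on that WT array and in Cy5 on the TG one. These probes had fitted dye effects of -0.33, -0.30 and -0.29, which raise the WT and lower the TG ratios. The difference in sign is therefore not read as one between genotypes. The standard error had a member median of 0.14 for changes with time and 0.10 to 0.11 between genotypes.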

How the data were processed

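For every feature the authors deposited a normalized log ratio on each array. Per the labels' design text the authors applied global loess within each array and quantile normalization between arrays, both in limma. The file does not state the log base or the direction of the deposited log2 ratios: log2 was inferred from that tool and the range of the values. RNA was amplified before labelling, per the labels' protocols. No source used here gives the scanner, the background correction or any filter. Probe names came from the platform annotation: 32042 features had 1 gene symbol, 47 several and 12201 none.

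The 43785 probes with at least 15 values of 20 were fitted by generalised least squares (R 4.3.3) with a coefficient for each group, a dye effect and 1 correlation for arrays sharing an animal, estimated at 0.00414. Variances were moderated in limma 3.58.1 (13 residual and 1.92 prior degrees of freedom), and p-values were adjusted by Benjamini-Hochberg over all tested probes. The 2 arrays pairing 17 and 80 dpi were read in title order. The method was tested on simulated data. The number of arrays, 43710 to 43894 values each, limits the precision. P-values measure the spread of arrays around the fitted group values, pooled over all groups. At the estimated correlation of 0.00414, arrays that share 1 of the 11 WT or 12 TG animals counted nearly as independent.

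Members, lists, motif strings and the reading of the direction were chosen with earlier results of these data known. Named probes were up to 5 with the largest called change in each direction, 1 per gene, and where fewer than 2 were called the next by moderated statistic, with further probes named to complete a role or a gene. Alternatives changed the direction, the dye term, the correlation, probe averaging, the filter, array weights, the arrays and the animals included.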

Additional observations from a re-analysis of the deposited data

Results flagged for a closer look

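In 3 member probes the difference between TG and WT at 17 dpi was itself different from that in naive mice, by the limma test of that difference. Mrpl57 (probe 31220) gave 0.38, Timm10b (probe 1741) gave -0.53 and Mrps30 gave -0.37, with adjusted p of 0.0175, 0.0206 and 0.00605. For Mrps30 all 3 arrays of TG over WT at 17 dpi lay below 0. For Timm10b 2 of the 3 did, and its other probe was not called for this difference. For Mrpl57 the sign of each ratio followed the dye on all 20 arrays, and its other probe was not called for this difference. In title order Mrps30 gave 0.15 and limma called no member for this difference.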

How the results depend on the processing

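Title order and the set of arrays changed many results. With every array read in title order the members called between genotypes were 21 (naive), 8 (10 dpi), 0 (17 dpi) and 41 (80 dpi), with 0 for 17 dpi over naive in WT and in TG, and for the differences from naive 2 at 10 dpi and 0 at 17 dpi. Of the 52 named values, 25 then turned sign, 21 lost the call and 6 kept direction and side of the threshold. The turned values were as follows. Between TG and WT in naive mice they were Mrpl15 -0.24 and Timm22 0.069. At 10 dpi between TG and WT they were Mrps18b -0.37, Mrps2 -0.39 and Mrps6 0.19. At 17 dpi between TG and WT they were Mrps11 -0.32, Mrpl57 -0.31, Timm10b 0.21, Mrps30 0.016 and Timm23 0.041. At 80 dpi between TG and WT they were Mrpl46 -0.21, Mrpl3 -0.31, Mrps6 0.22 and Mrpl23 0.023. For 17 dpi over naive in WT they were Mrps18c -0.26, Mrpl35 -0.11, Tomm40 0.020, Mrpl38 0.37 and Mrpl3 0.21. For 80 dpi over naive in WT they were Mrps30 -0.39, Mrpl15 -0.35 and Mrpl4 0.16. For 80 dpi over naive in TG they were Mrpl36 -0.32 and Mrps18b -0.25. For the difference at 17 dpi from naive they were Mrps30 0.15. Title order turns the sign of the 9 arrays with the numerator in Cy3 and leaves the other 11 as they are. As read here, macrophage and microglia array medians of TG over WT at 17 dpi were -1.44 and -1.44 with TG in Cy5 and -1.63 in Cy3. At 80 dpi they were -1.44 with TG in Cy5 and -1.45 to -1.04 in Cy3. On the 2 arrays of TG animal 1-5 at 10 dpi the skeletal muscle medians were 3.47 with TG in Cy5 and 3.14 in Cy3. In title order only the Cy3 medians would turn sign, so that arrays of 1 contrast would lie on opposite sides of 0. Which reading is right was not tested.

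Without the wide array of 17 dpi, an alternative chosen after seeing the data, the members called were 50 between TG and WT at 17 dpi and 7 at 80 dpi, 95 for 17 dpi and 2 for 80 dpi over naive in WT, 91 for 17 dpi over naive in TG, and 54 and 1 for the differences at 17 and 80 dpi. The counts of 2 and 1 are given without a share over all probes and are not read as a result about the members. Array weights raised the calls of all probes too. Between TG and WT they gave 1 member in naive mice (0.578%, against 0.569% of all probes), 58 at 17 dpi (33.5%, against 26.8%) and 48 at 80 dpi (27.7%, against 19.8%). Over naive they gave 87 at 17 dpi (50.3%, against 30.1%) and 22 at 80 dpi (12.7%, against 10.9%) in WT, and 113 (65.3%, against 45.6%) and 30 (17.3%, against 13.3%) in TG. For the differences at 17 and 80 dpi they gave 61 (35.3%, against 29.1%) and 36 (20.8%, against 17.8%), and they turned Mrps2 at 10 dpi to -0.17. Without a dye term 17 dpi over naive in TG had 26 (15.0%, against 7.63% of all probes) and the difference at 17 dpi 6 (3.47%, against 7.27%). Averaging probes per gene left 28 genes for 17 dpi over naive in WT (27.2%, against 15.3% of all features). It left 5 between TG and WT at 17 dpi (4.85%, against 12.8%), with fewer features in each case. It gave -0.0030 for Mrpl15 at 80 dpi over naive in WT. Without the arrays pairing 17 and 80 dpi, 6 were called between TG and WT at 17 dpi (3.47%, against 9.46% of all probes) and 23 for 17 dpi over naive in TG (13.3%, against 10.0%). The TG and WT arrays of 1 time alone gave 0 at 17 dpi and 1 at 80 dpi, the latter also without a share over all probes.

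Leaving out 1 animal of the compared groups at a time gave 15 to 55 members between TG and WT at 17 dpi, 17 to 99 for 17 dpi over naive in WT, 1 to 91 in TG and 0 to 60 for the difference at 17 dpi from naive, and 0 to 0 for the other 7 comparisons. Animals of other groups were not left out there, and the wide array, of 17 dpi, moved some 80 dpi counts as given. Taking arrays as independent, and keeping only probes with a value on all arrays, kept all 52 named values in direction and on their side of the threshold. No paired analysis was possible because each array already pairs its animals and replicate numbers only name arrays. Where limma called 0 members this is a statement about 1 to 4 arrays per contrast, not about absence of change.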
